A study of Homo sapiens with 24 samples.

Results

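The transcription factors that drive epithelial-mesenchymal transition (EMT) were followed across 2 lung cancer lines: SNAI1 (SNAIL), SNAI2 (SLUG), ZEB1, ZEB2, TWIST1 and TWIST2. They were chosen by name and not by a cut on their values, though with earlier results of these data known. All 6 had a row among the 25365 gene rows of the deposited expression table. A gene was taken as measured where its group mean was above FPKM 1 (fragments counted per unit of transcript length and of library size). By that rule 4 of the 6 were measured in at least 1 group, namely SNAI2, TWIST2, SNAI1 and TWIST1, while ZEB1 and ZEB2 were not measured in any of the 8 groups.

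EMT is the programme by which epithelial cells loosen their junctions and take on a mesenchymal form. SNAI proteins are zinc finger repressors, ZEB proteins are zinc finger and homeodomain repressors, and TWIST proteins are basic helix-loop-helix factors. All of these bind E-box sequences in DNA, and SNAI and ZEB factors are known to repress CDH1, which encodes E-cadherin. In lung cancer cells with mutant EGFR, EMT is known to accompany drug tolerance and resistance.

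Messenger RNA was measured in 24 libraries of HCC4006 and PC9, established human non-small cell lung cancer lines with an activating EGFR mutation, with 3 libraries in each group. In each line the groups were YAP1 KO cells in OT, YAP1 KO cells in DMSO, CTRL cells in OT and CTRL cells in DMSO, all after 24 hours. OT combined osimertinib, which inhibits mutant EGFR, at 100 nM with trametinib, which inhibits MEK, at 30 nM, and DMSO is the solvent. YAP1 is the transcriptional coactivator that the Hippo pathway holds in check. The replicates were dishes plated in triplicate, so p-values measure the spread between dishes. The labels used here do not say whether the knockout cells were a clone or a pool, and a difference between KO and CTRL cells cannot be told apart from a difference between the cell populations carrying those labels.

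YAP1 itself averaged 6.13 ± 0.190 FPKM in HCC4006 KO cells in OT and 15.5 ± 1.51 FPKM in CTRL cells in OT (SD, n = 3 each), and 11.0 ± 0.841 FPKM against 34.2 ± 0.371 FPKM in PC9. Its difference between KO and CTRL cells lay between -1.20 and -1.88 in log2(FPKM + 1) over the 4 comparisons. FPKM summed to 507120 to 660459 per library, relative depth ran from 0.945 to 1.42, and the lowest correlation of a library with its group mates was 0.985. Epithelial and lung markers summed to 3100 to 6409 FPKM in HCC4006 libraries and 5874 to 9583 FPKM in PC9 libraries, with 8 of 9 and 6 of 9 above FPKM 1. The lung lineage markers NKX2-1 and SFTPB were listed at 0 in PC9 CTRL DMSO. Fibroblast markers summed to at most 22.1 FPKM in HCC4006 and 2.75 FPKM in PC9, and endothelial markers to at most 6.70 FPKM and 1.16 FPKM. Leukocyte markers summed to at most 112 FPKM in HCC4006 and 40.0 FPKM in PC9, nearly all of it CD68, a lysosomal protein.

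SNAI2 and TWIST2 were above FPKM 1 in all 24 libraries. SNAI2 ranged from 3.95 to 15.5 FPKM with a median of 9.06 FPKM, and TWIST2 from 1.42 to 9.62 FPKM with a median of 4.80 FPKM. SNAI1 was above FPKM 1 in 15 of 24 libraries and in 5 of 8 group means, and TWIST1 in 8 of 24 libraries and 3 of 8 group means. Both lay close to the limit, with medians of 1.15 and 0.886 FPKM. ZEB1 reached at most 0.261 FPKM and ZEB2 at most 0.118 FPKM. SNAI2 thus had the highest median level per transcript length of the 6 factors.

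**Figure D1:**
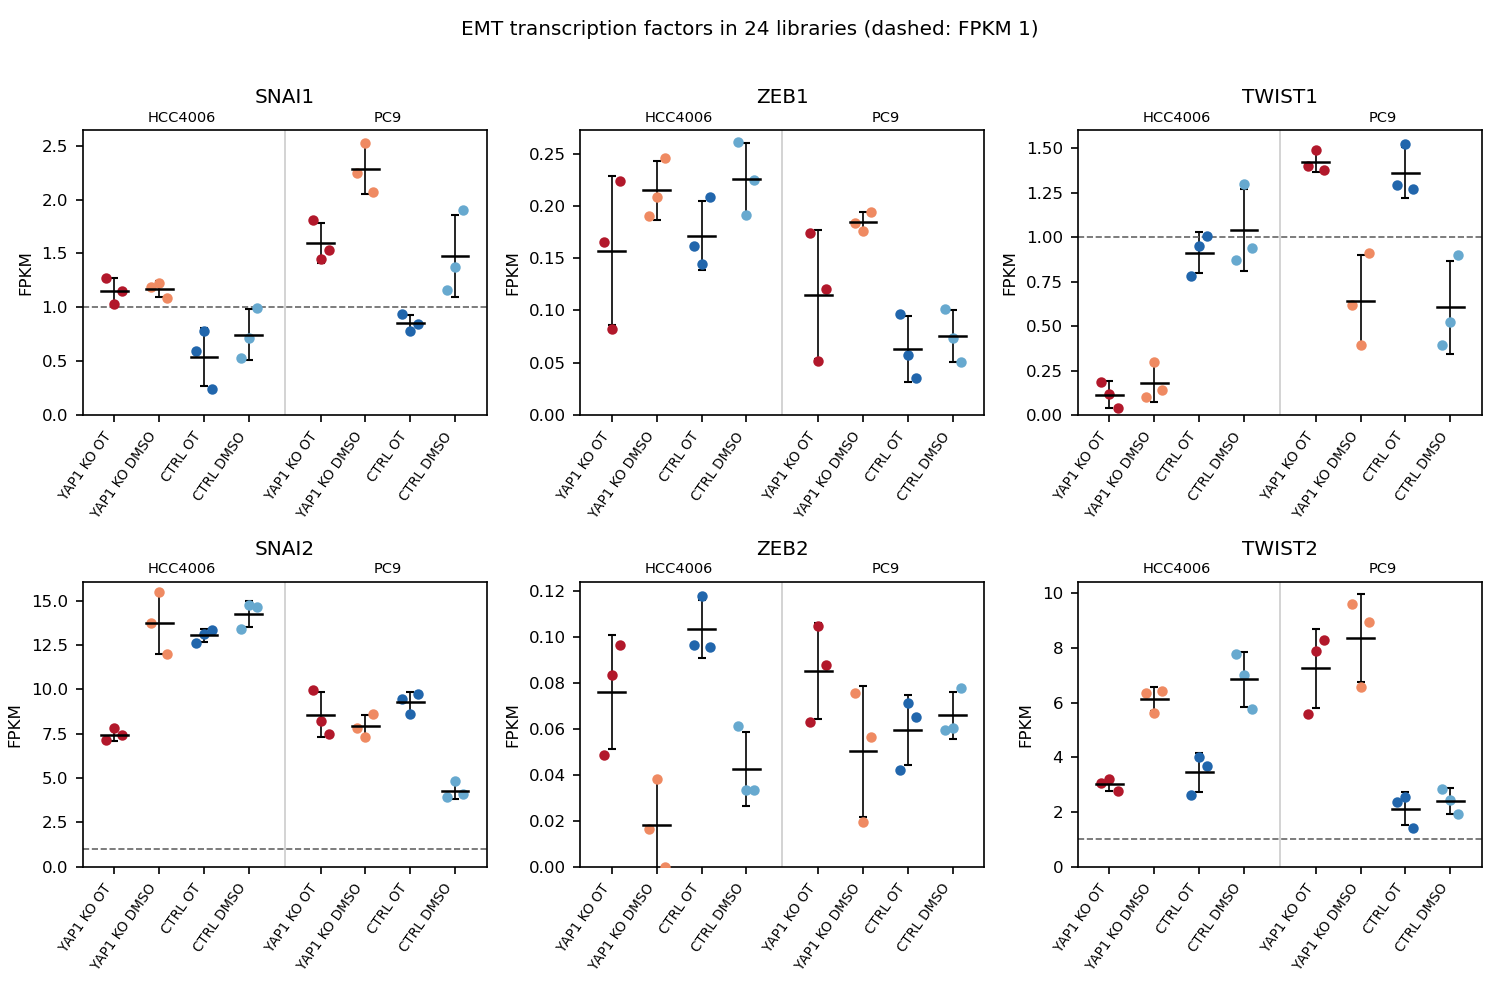
FPKM (linear axes starting at 0) of the 6 factors, with 1 point per library, a bar at the group mean and an error bar of 1 SD (n = 3). SNAI2 and TWIST2 stand above the dashed line at FPKM 1 in every group, SNAI1 and TWIST1 cross it, and ZEB1 and ZEB2, on axes that end below 1, reach at most 0.261 and 0.118 FPKM.

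The groups did not share 1 order across the factors. SNAI2 was highest in HCC4006 CTRL DMSO, KO DMSO and CTRL OT libraries, of which KO DMSO overlapped both others, and these lay above all other groups. PC9 CTRL OT, PC9 KO OT, PC9 KO DMSO and HCC4006 KO OT followed, each overlapping its neighbour, and PC9 CTRL DMSO was lowest without overlap. TWIST2 was highest in PC9 KO DMSO, PC9 KO OT, HCC4006 CTRL DMSO and HCC4006 KO DMSO, again overlapping neighbours, and a gap separated these from the other 4 groups, of which PC9 CTRL OT was lowest. SNAI1 was highest in PC9 KO DMSO, which overlapped no other group, and lowest in HCC4006 CTRL OT. TWIST1 was lowest in HCC4006 KO OT and HCC4006 KO DMSO, which overlapped each other and no other group.

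Promoter windows give the sequence around the starts of genes followed here, searched for the E-box form that SNAI and ZEB proteins are known to bind. The E-box letters CAGGTG and CACCTG, each the reverse complement of the other so that 1 strand covers both, were searched from 250 bases before to 50 bases after each gene start (RefSeq, GRCh38.p14). They occur in 7231 of 35116 windows, or 20.6%, over 27305 genes. The windows shown belong to BMF, a proapoptotic BH3-only gene, and to the epithelial genes CRB3, a polarity protein, and OCLN, the junction protein occludin. TWIST2 is shown because it had the largest KO difference among the factors tested in PC9. CRB3, OCLN and TWIST2 were picked for display after their values were seen. Some epithelial windows not shown held fewer matches, with 0 in CLDN4 and the first of CLDN7 and 1 in CLDN3 and the first of OCLN. The second of CLDN7 held 5. Capitals mark the E-box letters, all sequences run 5′ to 3′ in the direction of the gene, and BMF and OCLN have more than 1 annotated start.
BMF, first window, chr15:40108830-40109129, minus strand: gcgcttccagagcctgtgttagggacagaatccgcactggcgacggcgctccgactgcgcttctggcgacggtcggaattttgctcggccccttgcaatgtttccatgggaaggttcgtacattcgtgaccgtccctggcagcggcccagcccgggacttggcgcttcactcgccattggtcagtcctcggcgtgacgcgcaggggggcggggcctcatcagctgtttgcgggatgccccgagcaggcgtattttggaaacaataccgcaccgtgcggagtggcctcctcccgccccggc
BMF, second window, chr15:40106917-40107216, minus strand: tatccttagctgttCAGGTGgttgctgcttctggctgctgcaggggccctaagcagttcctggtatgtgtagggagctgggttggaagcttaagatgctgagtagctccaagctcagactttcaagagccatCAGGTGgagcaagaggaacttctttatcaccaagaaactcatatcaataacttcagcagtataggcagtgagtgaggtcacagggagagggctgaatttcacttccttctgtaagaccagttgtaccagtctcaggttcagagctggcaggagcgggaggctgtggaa
CRB3, chr19:6464021-6464320, plus strand: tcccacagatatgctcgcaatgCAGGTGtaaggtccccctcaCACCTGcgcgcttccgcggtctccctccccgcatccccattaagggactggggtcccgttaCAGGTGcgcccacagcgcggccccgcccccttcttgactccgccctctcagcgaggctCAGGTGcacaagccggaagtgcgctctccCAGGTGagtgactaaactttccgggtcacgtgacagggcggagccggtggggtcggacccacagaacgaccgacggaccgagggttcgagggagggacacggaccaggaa
OCLN, second window, chr5:69492540-69492839, plus strand: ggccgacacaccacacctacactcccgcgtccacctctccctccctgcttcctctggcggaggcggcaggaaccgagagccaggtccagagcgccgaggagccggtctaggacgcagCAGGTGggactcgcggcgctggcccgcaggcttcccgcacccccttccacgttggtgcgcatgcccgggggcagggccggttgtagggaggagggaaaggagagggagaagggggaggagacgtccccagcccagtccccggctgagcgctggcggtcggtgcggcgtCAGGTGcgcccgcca
TWIST2, chr2:238847835-238848134, plus strand: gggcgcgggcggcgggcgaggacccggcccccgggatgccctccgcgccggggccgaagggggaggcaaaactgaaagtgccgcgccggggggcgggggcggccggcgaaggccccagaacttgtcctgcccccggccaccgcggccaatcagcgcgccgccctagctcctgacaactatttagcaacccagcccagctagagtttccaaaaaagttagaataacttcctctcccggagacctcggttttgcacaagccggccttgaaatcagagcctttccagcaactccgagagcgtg

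The first BMF window and the TWIST2 window hold neither motif. The second BMF window holds CAGGTG 2 times, beginning 236 and 118 bases before that start. CRB3 holds 5 matches and the second OCLN window 2. Of the 22 epithelial genes listed as repression targets, 10 had windows in the table, and 9 of their 13 windows, in 7 genes, held a match. Among the factors themselves ZEB1 had a match in 2 of 7 windows and ZEB2 in 0 of 1. A match is a description of letters, not of a bound site, and no match says only that these letters are not in this window.

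OT against DMSO asks what EGFR and MEK inhibition does to the factors. In HCC4006 cells TWIST2 fell with OT in both genotypes and SNAI2 fell in KO cells. In PC9 cells TWIST1 rose and SNAI1 fell in both genotypes, and SNAI2 rose in CTRL cells. Calls use limma on log2(FPKM + 1) over all genes tested, at p under 0.05 after Benjamini-Hochberg adjustment, and most genes moved. In HCC4006 KO cells 0 of the 3 factors that passed the filter were higher and 2 were lower, where 46.4% and 36.5% of all genes were. In HCC4006 CTRL cells 0 were higher and 1 was lower, beside 45.0% and 36.6% of all genes. In PC9 KO cells 1 of 4 was higher and 1 lower, beside 36.9% and 41.4%, and in PC9 CTRL cells 2 were higher and 1 lower, beside 32.0% and 40.9%. These shares of all genes are so high that the number of factors called says little by itself, and the sizes below carry the description.

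YAP1 KO against CTRL asks what loss of YAP1 does under each treatment. In PC9 cells TWIST2 and SNAI1 were higher in KO cells under OT and under DMSO, and SNAI2 under DMSO. In HCC4006 cells SNAI2 was lower and SNAI1 higher in KO cells under OT. The 4 PC9 factors gave 2 higher and 0 lower under OT, beside 28.5% and 25.2% of all genes, and 3 higher and 0 lower under DMSO, beside 19.8% and 20.0%. The 3 HCC4006 factors gave 1 higher, SNAI1, which passed the filter through its KO libraries alone, and 1 lower under OT, beside 27.2% and 16.4%, and 0 in either direction under DMSO, beside 9.20% and 8.65%. TWIST1 did not pass the filter in HCC4006 and is described without one. Of the 3 factors that limma left uncalled in HCC4006 DMSO, 1, SNAI1, had an unadjusted p under 0.05. In these bulk RNA data fewer expressing cells and less RNA per cell cannot be told apart.

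**Figure D2:**
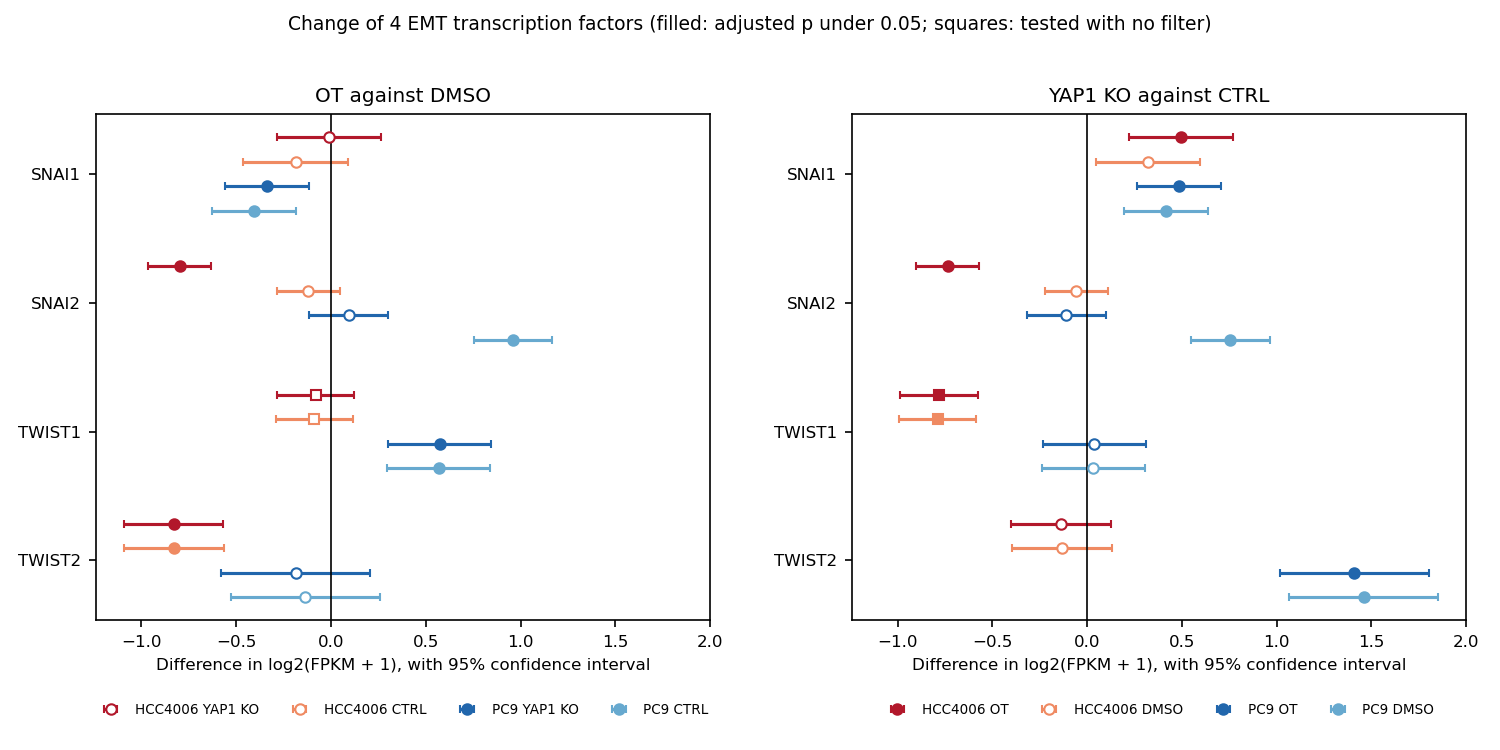
Differences in log2(FPKM + 1) with 95% confidence intervals from limma for OT against DMSO (left) and YAP1 KO against CTRL (right), grouped by factor with 1 colour per line and setting. Filled symbols passed an adjusted p of 0.05 and squares were tested with no filter. The OT change of SNAI2 is 0.96 in PC9 CTRL cells and -0.80 in HCC4006 KO cells, and the KO differences of TWIST2 are 1.41 under OT and 1.46 under DMSO in PC9.

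SNAI2, a repressor of epithelial genes, depended on genotype and drug together in HCC4006. Its levels were 7.12, 7.81 and 7.41 FPKM in KO cells in OT, against 13.7, 15.5 and 12.02 FPKM in KO cells in DMSO. The groups did not overlap, and the OT mean was 54.2% of the DMSO mean. In CTRL cells SNAI2 was 12.6, 13.2 and 13.4 FPKM in OT, against 13.4, 14.8 and 14.6 FPKM in DMSO. All 3 CTRL OT libraries lay below the DMSO libraries, the closest pair by less than 0.1 FPKM. On the log2(FPKM + 1) scale the OT change was -0.80 in KO cells (SE 0.0756, adjusted p = 6.9e-07) and -0.12 in CTRL cells (SE 0.0756, adjusted p = 0.161).

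The difference between these HCC4006 responses was itself tested. The OT change of SNAI2 in KO cells minus that in CTRL cells was -0.68 (SE 0.107, adjusted p = 0.00100), where 18.6% of all genes passed. Under OT, KO cells had 57.0% of the SNAI2 mean of CTRL cells, a difference of -0.74 (SE 0.0756, adjusted p = 1.2e-05). Under DMSO the difference was -0.06, with a 95% interval of -0.22 to 0.11. Scaling libraries to the same FPKM sum moved the median OT change of all genes in HCC4006 CTRL cells to 0.28, against 0.09 as deposited, and SNAI2 to 0.09 there. With median-of-ratios scaling SNAI2 was -0.24 in CTRL cells (adjusted p = 0.0124), so its sign and call in CTRL cells hang on the scaling. Relative to the median of all genes it was -0.21 as deposited, -0.19 with equal sums and -0.21 with median-of-ratios scaling.

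In PC9 SNAI2 took another course. In KO cells it was 9.98, 8.21 and 7.51 FPKM in OT, against 7.79, 7.34 and 8.64 FPKM in DMSO, and the groups overlapped. In CTRL cells it was 9.48, 8.62 and 9.73 FPKM in OT, against 3.95, 4.84 and 4.08 FPKM in DMSO. Every CTRL OT library was above every CTRL DMSO library, and the OT mean was 2.16 times the DMSO mean. The OT change was 0.09 in KO cells (SE 0.0951, adjusted p = 0.378) and 0.96 in CTRL cells (SE 0.0951, adjusted p = 1.7e-06).

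The PC9 OT change of SNAI2 in KO cells minus that in CTRL cells was -0.87 (SE 0.134, adjusted p = 0.000603), where 27.0% of all genes passed. Under DMSO, PC9 KO cells had 1.85 times the SNAI2 mean of CTRL cells, a difference of 0.76 (SE 0.0951, adjusted p = 6.4e-05). Under OT the difference was -0.11, with a 95% interval of -0.32 to 0.10. The interaction of genotype and drug therefore had the same sign in both lines, while the group that stood apart was KO cells in OT in HCC4006 and CTRL cells in DMSO in PC9.

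SNAI1, the other SNAI repressor, was higher in KO than in CTRL cells in both lines under OT and in PC9 under DMSO, while in HCC4006 under DMSO the difference did not pass the test. In HCC4006 OT it was 1.27, 1.03 and 1.15 FPKM in KO cells, against 0.598, 0.779 and 0.245 FPKM in CTRL cells. In HCC4006 DMSO it was 1.19, 1.23 and 1.08 FPKM in KO cells, against 0.526, 0.713 and 0.996 FPKM in CTRL cells. All 6 KO libraries lay above all 6 CTRL libraries of that line, and SNAI1 passed the filter on low values in HCC4006 through the KO libraries alone. The differences were 0.50 under OT (SE 0.126, adjusted p = 0.00743) and 0.32 under DMSO (SE 0.126, adjusted p = 0.105). With no filter the adjusted p was 0.0144 under OT and 0.160 under DMSO, where 19.2% and 5.68% of all genes were higher. Without replicate 3 of HCC4006 CTRL OT, the lowest library, the DMSO comparison gave an adjusted p of 0.0403. That replicate enters the DMSO comparison only through the shared estimate of the spread.

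In PC9 SNAI1 was 1.81, 1.45 and 1.54 FPKM in KO cells in OT, against 0.936, 0.779 and 0.845 FPKM in CTRL cells in OT. It was 2.25, 2.53 and 2.07 FPKM in KO cells in DMSO, against 1.16, 1.37 and 1.90 FPKM in CTRL cells in DMSO. KO libraries lay above CTRL libraries under each treatment, and OT libraries below DMSO libraries in each genotype. The KO difference was 0.49 under OT (SE 0.102, adjusted p = 0.00168) and 0.42 under DMSO (SE 0.102, adjusted p = 0.00652). The OT change was -0.34 in KO cells (SE 0.102, adjusted p = 0.00893) and -0.41 in CTRL cells (SE 0.102, adjusted p = 0.00323).

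For SNAI1 in HCC4006 the OT change was -0.01 in KO cells (adjusted p = 0.934) and -0.19 in CTRL cells (adjusted p = 0.186). Without replicate 2 of HCC4006 CTRL OT the change in CTRL cells was -0.30 (adjusted p = 0.0462). With libraries scaled to the same FPKM sum the value in KO cells was 0.09 (adjusted p = 0.507). The interaction of genotype and drug was 0.17 for SNAI1 in HCC4006 (95% interval -0.21 to 0.56) and 0.07 in PC9 (95% interval -0.25 to 0.38). Neither passed.

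TWIST2, a basic helix-loop-helix factor, responded to the drug in HCC4006 and to genotype in PC9. In HCC4006 it was 3.07, 3.21 and 2.75 FPKM in KO cells in OT, against 6.35, 5.63 and 6.42 FPKM in KO cells in DMSO. In CTRL cells it was 2.63, 4.01 and 3.70 FPKM in OT, against 7.77, 7.02 and 5.78 FPKM in DMSO. All 6 OT libraries lay below all 6 DMSO libraries, and OT means were 49.1% and 50.2% of DMSO means in KO and CTRL cells. The OT change was -0.83 in KO cells (SE 0.121, adjusted p = 3.7e-05) and -0.83 in CTRL cells (SE 0.121, adjusted p = 4.0e-05). The KO difference of TWIST2 in HCC4006 was -0.14 under OT (adjusted p = 0.385) and -0.13 under DMSO (adjusted p = 0.509). Without replicate 1 of HCC4006 CTRL OT, the library of greatest relative depth, the difference under OT was -0.28 (adjusted p = 0.0435).

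In PC9 TWIST2 was 5.59, 7.89 and 8.28 FPKM in KO cells in OT, against 2.38, 2.54 and 1.42 FPKM in CTRL cells in OT. In DMSO it was 9.62, 6.56 and 8.97 FPKM in KO cells, against 2.85, 2.43 and 1.91 FPKM in CTRL cells. The lowest KO library stood well above the highest CTRL library, and KO means were 3.43 times and 3.50 times CTRL means under OT and DMSO. The differences were 1.41 under OT (SE 0.180, adjusted p = 4.1e-05) and 1.46 under DMSO (SE 0.180, adjusted p = 5.3e-05). The OT change of TWIST2 in PC9 was -0.19 in KO cells (adjusted p = 0.358) and -0.14 in CTRL cells (adjusted p = 0.513). Its interaction of genotype and drug did not pass in either line, with a 95% interval of -0.38 to 0.37 in HCC4006 cells and another of -0.61 to 0.51 in PC9 cells.

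TWIST1, the close relative of TWIST2, was at its lowest in HCC4006 KO cells. It was 0.186, 0.118 and 0.0382 FPKM in KO cells in OT, against 0.782, 0.953 and 1.01 FPKM in CTRL cells in OT. In DMSO it was 0.0991, 0.299 and 0.139 FPKM in KO cells, against 0.873, 1.30 and 0.941 FPKM in CTRL cells. The highest KO library was below the lowest CTRL library, and KO means were 12.5% and 17.3% of CTRL means under OT and DMSO. Tested with no filter on low values, an alternative chosen after the values were seen, TWIST1 was lower in KO cells, with differences of -0.78 under OT (SE 0.0914, adjusted p = 0.000136) and -0.79 under DMSO (SE 0.0914, adjusted p = 0.000494). Without a filter 12.5% of all genes were lower in KO cells under OT and 6.03% under DMSO. The 2 TWIST genes have similar coding sequences, and the sources used here do not say how reads shared between them were counted.

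In PC9 TWIST1 followed the drug. It was 1.40, 1.49 and 1.38 FPKM in KO cells in OT, against 0.620, 0.394 and 0.913 FPKM in KO cells in DMSO. In CTRL cells it was 1.30, 1.53 and 1.27 FPKM in OT, against 0.396, 0.523 and 0.899 FPKM in DMSO. All OT libraries lay above FPKM 1 and all DMSO libraries below, so TWIST1 passed the PC9 filter through its OT libraries alone. The OT change was 0.57 in KO cells (SE 0.124, adjusted p = 0.00104) and 0.57 in CTRL cells (SE 0.124, adjusted p = 0.00128). With no filter the adjusted p was 0.00265 in KO cells and 0.00329 in CTRL cells, where 28.6% and 23.5% of all genes were higher. The KO difference was 0.04 under OT, with a 95% interval of -0.23 to 0.31, and 0.03 under DMSO, with an interval of -0.24 to 0.30.

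ZEB1 and ZEB2, direct repressors of CDH1 and of epithelial splicing regulators, were near the floor of the table. ZEB1 had a median of 0.170 FPKM and a lowest value of 0.0349 FPKM. ZEB2 had a median of 0.0619 FPKM and was listed at 0 in 1 library, replicate 3 of HCC4006 KO DMSO. Neither passed the filter. With no filter, an alternative that tests levels near 0, the OT change of ZEB2 in HCC4006 was 0.08 in KO cells (adjusted p = 0.00655) and 0.08 in CTRL cells (adjusted p = 0.00594), where 39.1% and 37.1% of all genes were higher. ZEB1 was 0.14 higher in PC9 KO than CTRL cells under DMSO (adjusted p = 0.0190), beside 13.7% of all genes. ZEB1-AS1, an antisense transcript at the ZEB1 locus, averaged 0.704 to 2.49 FPKM over the 8 groups, above ZEB1 in each. The library kit marks strand, but whether counting used it was not stated in the sources, so reads of overlapping exons cannot be told apart.

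Between lines, HCC4006 CTRL cells had more SNAI2 and TWIST2 than PC9 CTRL cells, and the gap was wider in DMSO. SNAI2 averaged 14.3 ± 0.733 FPKM in HCC4006 CTRL DMSO and 4.29 ± 0.484 FPKM in PC9 CTRL DMSO (SD, n = 3 each), a difference of 1.53 (SE 0.0903, adjusted p = 2.5e-12). TWIST2 averaged 6.86 ± 1.00 FPKM in HCC4006 CTRL DMSO and 2.40 ± 0.469 FPKM in PC9 CTRL DMSO, a difference of 1.21 (SE 0.165, adjusted p = 1.1e-06). Under OT the differences were 0.45 for SNAI2 (adjusted p = 0.000111) and 0.52 for TWIST2 (adjusted p = 0.00672). SNAI1 was lower in HCC4006, with differences of -0.28 under OT (adjusted p = 0.0340) and -0.50 under DMSO (adjusted p = 0.000642). TWIST1 differed by -0.31 under OT (adjusted p = 0.0180) and 0.35 under DMSO (adjusted p = 0.00798). All 4 factors passed in both, beside 84.7% of all genes under OT and 82.6% under DMSO. With the replicate number as a block 2 of the 4 passed under OT, with adjusted p of 0.114 for SNAI1 and 0.0674 for TWIST2. Several of these calls also hung on a library. Without replicate 3 of HCC4006 CTRL OT the SNAI1 difference under OT was -0.14 (adjusted p = 0.269), and its adjusted p was 0.0951 and 0.0613 without replicates 1 and 3 of PC9 CTRL OT. Without replicate 3 of PC9 CTRL OT the TWIST2 difference was 0.35 (adjusted p = 0.0615). The TWIST1 difference under OT had an adjusted p of 0.0718 without replicate 1 of HCC4006 CTRL OT and 0.0722 without replicate 2 of PC9 CTRL OT. Under DMSO that of TWIST1 had 0.0572 without replicate 2 of HCC4006 CTRL DMSO and 0.0594 without replicate 1 of PC9 CTRL DMSO. The SNAI2 calls passed with each library left out. TWIST1 passed the filter of the fit over both lines through its PC9 OT libraries, with 6 PC9 and 2 HCC4006 libraries at FPKM 1 or more.

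The responses of the lines were also tested against each other, in the same fit, where TWIST1 passed the filter through its PC9 OT libraries. With no filter on low values the TWIST1 calls between lines stayed. The OT change in CTRL cells of HCC4006 minus that of PC9 was -1.08 for SNAI2 (SE 0.128, adjusted p = 4.0e-07), -0.69 for TWIST2 (SE 0.234, adjusted p = 0.0139) and -0.66 for TWIST1 (SE 0.161, adjusted p = 0.00143), where 65.3% of all genes passed. SNAI1 gave 0.22 (adjusted p = 0.257), and 0.37 without replicate 3 of HCC4006 CTRL OT (adjusted p = 0.0407). The KO difference under OT in HCC4006 minus that in PC9 was -1.55 for TWIST2 (SE 0.234, adjusted p = 2.3e-05), -0.82 for TWIST1 (SE 0.161, adjusted p = 0.000386) and -0.62 for SNAI2 (SE 0.128, adjusted p = 0.000554), beside 42.4% of all genes. Under DMSO it was -1.59 for TWIST2, -0.82 for TWIST1 and -0.81 for SNAI2, with adjusted p of 3.4e-05, 0.000647 and 7.2e-05, beside 29.4% of all genes. SNAI1 gave 0.01 under OT, with an interval of -0.34 to 0.36, and -0.10 under DMSO, with an interval of -0.45 to 0.26.

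SNAI2 is of interest beside BMF, since the study concerns YAP1 and the apoptotic pathway and SNAI2 has been described with YAP and TEAD as a repressor of BMF. In HCC4006 under OT, BMF averaged 157 ± 4.22 FPKM in KO cells and 101 ± 9.86 FPKM in CTRL cells (SD, n = 3 each), a difference of 0.64 (SE 0.0637, adjusted p = 1.0e-05), where SNAI2 differed by -0.74. In PC9 under OT, BMF averaged 41.9 ± 1.34 FPKM in KO cells and 10.4 ± 0.538 FPKM in CTRL cells, a difference of 1.92 (SE 0.0688, adjusted p = 1.5e-09), where SNAI2 differed by -0.11 and did not pass. Between KO and CTRL cells under OT, BMF differed more in PC9 and SNAI2 more in HCC4006. Whether SNAI2 acts on BMF was not tested. With OT BMF rose by 4.09, 3.33, 4.06 and 2.09 in HCC4006 KO, HCC4006 CTRL, PC9 KO and PC9 CTRL cells (adjusted p = 9.2e-11 in PC9 CTRL cells). SNAI2 changed by -0.80, -0.12, 0.09 and 0.96 in the same order, and passed only in HCC4006 KO and PC9 CTRL cells. Over all 24 libraries, centred within each line, the correlation of SNAI2 with BMF was -0.08, a description only. Of the 5 BH3-only genes tested with BMF included, 2 were higher and 0 lower in HCC4006 KO cells under OT and 4 and 0 in PC9 KO cells under OT, with 0 and 0 under DMSO in each line. Of all genes 27.2% were higher and 16.4% lower in HCC4006 under OT, a share near that of the 5, and 28.5% and 25.2% in PC9. Under DMSO the shares of all genes were 9.20% and 8.65% in HCC4006 and 19.8% and 20.0% in PC9. Protein and binding were not analysed here.

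**Figure D3:**
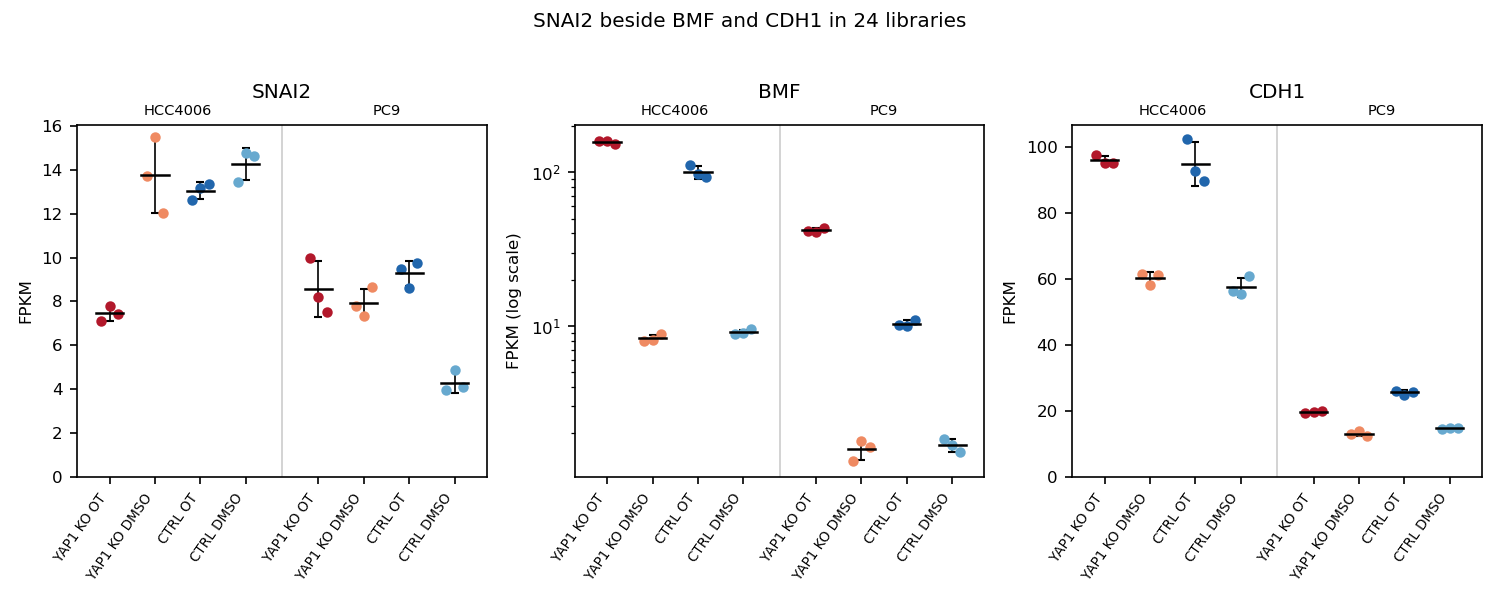
FPKM of SNAI2, BMF (log axis) and CDH1 by group, with 1 point per library, a bar at the mean and an error bar of 1 SD (n = 3). Under OT, BMF is higher in KO than in CTRL cells of both lines, while SNAI2 is lower in KO cells of HCC4006 and overlaps between genotypes in PC9.

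CDH1, the best known target of SNAI and ZEB factors, averaged 95.8 ± 1.36 FPKM in HCC4006 KO OT and 60.2 ± 1.78 FPKM in KO DMSO (SD, n = 3 each). It rose with OT in all 4 settings, by 0.66 and 0.71 in HCC4006 KO and CTRL cells and by 0.56 and 0.76 in PC9 KO and CTRL cells. The rise of CDH1 went with a fall of TWIST2 in both genotypes of HCC4006, and of SNAI2 in HCC4006 KO cells. In PC9 it went with a rise of TWIST1 and a fall of SNAI1 in both genotypes, and a rise of SNAI2 in CTRL cells. In PC9 CDH1 was lower in KO cells, with differences of -0.37 under OT (adjusted p = 8.2e-06) and -0.16 under DMSO (adjusted p = 0.00563). TWIST2 and SNAI1 messenger RNA was higher in those cells under both treatments, and that of SNAI2 under DMSO. In HCC4006 the KO differences of CDH1 were 0.02 and 0.07 and did not pass. Whether the factors act on CDH1 in these cells was not tested.

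The epithelial genes known as repression targets of the factors mostly rose with OT. Of 22 tested, 15 were higher and 5 lower in HCC4006 KO cells, 15 and 4 in HCC4006 CTRL cells, and 17 and 4 in PC9 KO cells and in PC9 CTRL cells alike. The shares of all genes were 46.4% higher and 36.5% lower, 45.0% and 36.6%, 36.9% and 41.4%, and 32.0% and 40.9% in that order. Median changes of the list were 0.67, 0.57, 0.52 and 0.39, beside 0.11, 0.09, -0.02 and -0.04 for all genes tested. MUC1, an epithelial mucin, rose by 4.06 in HCC4006 KO cells and 1.62 in PC9 CTRL cells, and OCLN, whose window is shown above, by 2.49 and 0.47. CRB3 rose by 0.28 and 0.39 in the same settings. KRT18, a keratin of simple epithelia, fell by 3.14 in HCC4006 KO cells and by 2.25 in HCC4006 CTRL cells. EPCAM, another epithelial marker, was -0.40 in PC9 CTRL cells (adjusted p = 9.7e-08).

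In KO against CTRL cells the epithelial targets gave counts that differed by line and drug, a difference that was not tested for the list. In PC9 under DMSO 1 of 22 was higher and 17 lower, beside 19.8% and 20.0% of all genes, with a median of -0.23 beside 0.01. Among those lower MUC1 was -0.69, LLGL2, a polarity gene, -0.60 and KRT8 -0.46. In PC9 under OT 6 were higher and 11 lower, beside 28.5% and 25.2%, with a median of -0.06 beside 0.02. In HCC4006 under OT 10 were higher and 6 lower, beside 27.2% and 16.4%, with a median of 0.12 beside 0.06. In HCC4006 under DMSO 1 was higher and 3 lower, beside 9.20% and 8.65%, with a median of -0.05 beside 0.02. ESRP1, an epithelial splicing factor that ZEB1 is known to repress, was higher in HCC4006 KO cells by 0.42 under OT and 0.22 under DMSO.

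Mesenchymal genes were mostly lower in HCC4006 KO cells and, in PC9 KO cells, more often higher than lower. In HCC4006 KO cells 1 of 19 was higher and 16 lower than in CTRL cells under OT, and 1 and 11 under DMSO, with medians of -0.63 and -0.26 beside 0.06 and 0.02 for all genes. There 27.2% of all genes were higher and 16.4% lower under OT, and 9.20% and 8.65% under DMSO. FN1, which encodes fibronectin, was -1.29 under OT and -0.74 under DMSO, COL1A2, a fibrillar collagen chain, -2.07 and -0.86, and TAGLN, an actin-binding protein, -1.88 and -1.40. In PC9 KO cells 9 of 14 were higher and 4 lower under OT, and 7 and 2 under DMSO, with medians of 0.22 and 0.26 beside 0.02 and 0.01. There the shares of all genes were 28.5% and 25.2% under OT and 19.8% and 20.0% under DMSO. VIM, which encodes vimentin, averaged 25.5 ± 1.83 FPKM in PC9 KO OT and 11.0 ± 3.63 FPKM in PC9 CTRL OT (SD, n = 3 each), a difference of 1.18 (adjusted p = 3.4e-05), and the difference under DMSO was 1.80. Its OT change in PC9 KO cells was -0.72 (adjusted p = 0.000662). In HCC4006 VIM was far higher, with means of 448 FPKM in KO OT, 513 in CTRL OT, 321 in KO DMSO and 359 in CTRL DMSO.

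With OT 13 of 19 mesenchymal genes rose in HCC4006 KO cells, 14 in HCC4006 CTRL cells, 8 of 14 in PC9 KO cells and 9 in PC9 CTRL cells, while 4, 3, 3 and 2 fell. Of all genes 46.4%, 45.0%, 36.9% and 32.0% rose and 36.5%, 36.6%, 41.4% and 40.9% fell in the same settings. The medians of the list were 0.48, 0.73, 0.23 and 0.23, beside 0.11, 0.09, -0.02 and -0.04 for all genes. The list shares COL1A1, COL1A2, COL3A1, PDGFRB and THY1 with the fibroblast markers. Those markers summed to 7.32 to 7.77 FPKM in HCC4006 KO OT, 2.52 to 2.96 in KO DMSO, 21.0 to 22.1 in CTRL OT and 5.61 to 6.25 in CTRL DMSO, with 3 of 10 above FPKM 1 in at least 1 group of that line. LUM and POSTN were at 0 in KO OT, and PDGFRA and PDGFRB were below 0.1 FPKM in all 4 groups. Their part in the result was not tested.

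**Figure D4:**
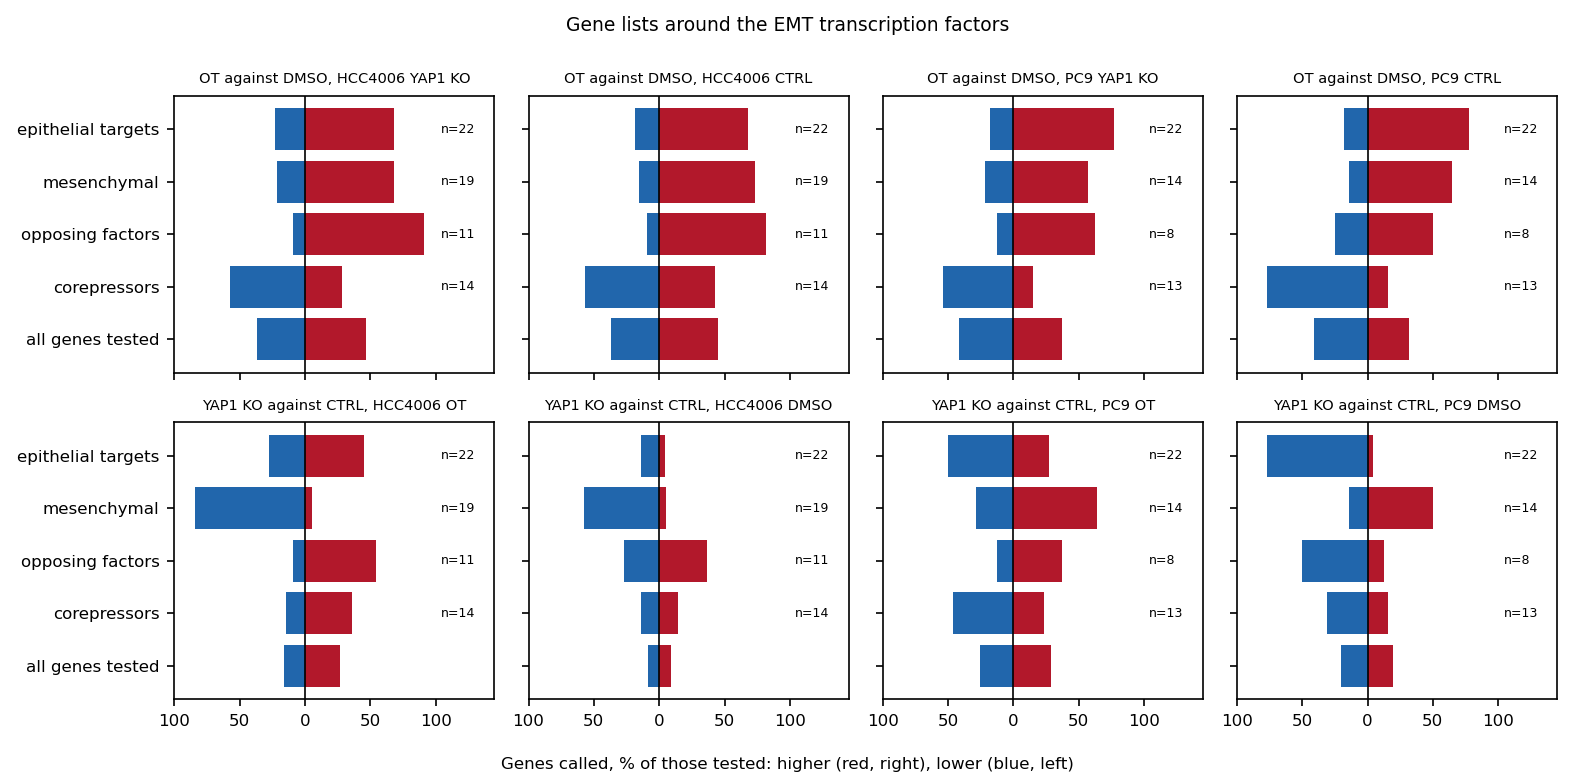
Share of tested genes called higher (red, right) and lower (blue, left) in each list and in all genes tested, with the number tested beside the bar, for OT against DMSO (top) and YAP1 KO against CTRL (bottom). Mesenchymal genes are mostly lower in HCC4006 KO cells, 16 of 19 under OT, and epithelial targets mostly lower in PC9 KO cells under DMSO, 17 of 22.

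Factors known to oppose EMT, such as ELF3, OVOL1, OVOL2, GRHL2 and FOXA1, rose with OT in HCC4006, 10 of 11 in KO cells and 9 in CTRL cells with 1 lower in each. In PC9 5 of 8 rose and 1 fell in KO cells, and 4 rose and 2 fell in CTRL cells. Of all genes 46.4% and 45.0% rose in HCC4006 KO and CTRL cells, and 36.9% and 32.0% in PC9. The shares that fell were 36.5%, 36.6%, 41.4% and 40.9% in that order. This list shares ESRP1 and ESRP2 with the epithelial targets, so the 2 lists are not separate. The gene that fell in HCC4006 was FOXA2, a forkhead factor, with -1.53 in KO cells and -1.61 in CTRL cells. KLF4, a Kruppel-like factor, was -0.73 in PC9 KO cells and -0.51 in PC9 CTRL cells, while in HCC4006 it rose by 1.22 and 0.52. ELF3, an epithelial ETS factor, rose by 2.59, 1.96, 2.73 and 1.85 in HCC4006 KO, HCC4006 CTRL, PC9 KO and PC9 CTRL cells. OVOL1, a zinc finger repressor of ZEB1, was 1.29 higher in HCC4006 KO than CTRL cells under OT (SE 0.0968, adjusted p = 8.75e-07), with 4.63 ± 0.377 FPKM against 1.31 ± 0.181 FPKM (SD, n = 3 each). Of the 11 in HCC4006 under OT 6 were higher and 1 lower in KO cells, and under DMSO 4 and 3. In PC9 it was 3 and 1 of 8 under OT, and 1 and 4 under DMSO. Shares of all genes were 27.2% and 16.4%, 9.20% and 8.65%, 28.5% and 25.2%, and 19.8% and 20.0% in that order.

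Corepressors that the factors recruit were more often lower than higher with OT. Of 14 in HCC4006, 4 rose and 8 fell in KO cells and 6 and 8 in CTRL cells. Of 13 in PC9, 2 rose and 7 fell in KO cells and 2 and 10 in CTRL cells. Of all genes 46.4% rose and 36.5% fell in HCC4006 KO cells, and 45.0% and 36.6% in HCC4006 CTRL cells. In PC9 36.9% rose and 41.4% fell in KO cells, and 32.0% and 40.9% in CTRL cells. The 7 of 13 thus stood not far above the share of all genes that fell. EZH2, the methyltransferase of Polycomb repressive complexes, fell by 1.62, 1.44, 1.68 and 1.23 in HCC4006 KO, HCC4006 CTRL, PC9 KO and PC9 CTRL cells. AJUBA, a LIM protein that binds SNAI factors, rose by 1.34, 1.96, 1.13 and 0.93 in the same order. KDM1A (LSD1), the demethylase that SNAI1 recruits, averaged 62.8 ± 2.01 FPKM in PC9 KO OT and 98.6 ± 1.38 FPKM in PC9 CTRL OT (SD, n = 3 each), a difference of -0.64 (SE 0.0346, adjusted p = 3.5e-08). Under DMSO it was -0.81, and in HCC4006 the KO differences were -0.02 and 0.01 and did not pass. Between genotypes 5 corepressors were higher and 2 lower in HCC4006 KO cells under OT, 2 and 2 under DMSO, 3 and 6 in PC9 under OT, and 2 and 4 under DMSO. All genes gave 27.2% and 16.4%, 9.20% and 8.65%, 28.5% and 25.2%, and 19.8% and 20.0% in the same order.

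Among the dimer partners of TWIST factors and their ID inhibitors, TCF3 (E2A) fell with OT in PC9 by 0.63 in KO cells and 0.64 in CTRL cells. In HCC4006 TCF3 was 0.00 in KO cells (adjusted p = 0.983) and rose by 0.13 in CTRL cells (adjusted p = 0.0174). ID3 rose with OT by 1.23, 1.29, 1.66 and 1.74 in HCC4006 KO, HCC4006 CTRL, PC9 KO and PC9 CTRL cells. ID1, which sequesters E proteins, was higher in KO cells under OT by 0.60 in HCC4006 and 0.79 in PC9. ID2 was higher in HCC4006 KO cells under OT by 0.75 (adjusted p = 9.9e-05). ID4 went the other way in PC9 KO cells. Its differences were -1.001 under OT (adjusted p = 3.99e-07) and -0.45 under DMSO (adjusted p = 0.000435). Of 6 such genes in HCC4006 3 rose and 1 fell with OT in KO cells and 4 and 1 in CTRL cells, and of 5 in PC9 3 and 2 in KO cells and 2 and 2 in CTRL cells. Of all genes 46.4% rose and 36.5% fell in HCC4006 KO cells and 36.9% and 41.4% in PC9 KO cells. For CTRL cells the shares were 45.0% and 36.6% in HCC4006 and 32.0% and 40.9% in PC9. In KO against CTRL cells 3 were higher and 0 lower in HCC4006 under OT and 2 and 0 under DMSO, with 3 and 1 in PC9 under either treatment. For all genes it was 27.2% and 16.4% in HCC4006 under OT and 9.20% and 8.65% under DMSO. In PC9 it was 28.5% and 25.2% under OT and 19.8% and 20.0% under DMSO.

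Kinases and ubiquitin enzymes that act on the SNAI, TWIST and ZEB proteins gave few calls between genotypes except in PC9 under OT. Of 12 in HCC4006 2 were higher and 0 lower in KO cells under OT and 0 and 0 under DMSO, and of 11 in PC9 7 and 0 under OT and 1 and 0 under DMSO. With OT 7 rose and 0 fell in HCC4006 KO cells, 7 and 1 in HCC4006 CTRL cells, 4 and 1 in PC9 KO cells and 3 and 4 in PC9 CTRL cells. Of all genes 46.4%, 45.0%, 36.9% and 32.0% rose in these settings, so most counts of rises lay near the share of all genes. The shares of all genes that fell were 36.5%, 36.6%, 41.4% and 40.9%, and only the PC9 CTRL count lay near its share. Between genotypes 27.2% of all genes were higher and 16.4% lower in HCC4006 under OT, and 9.20% and 8.65% under DMSO. In PC9 under OT 28.5% were higher, well below the 7 of 11, and 25.2% lower, with 19.8% and 20.0% under DMSO. USP9X, a deubiquitinase, rose by 0.57 in HCC4006 CTRL cells and 0.57 in PC9 KO cells. The casein kinase CSNK1A1 was 0.23 higher in HCC4006 KO cells and 0.27 higher in PC9 KO cells under OT.

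TGF-beta, the best known inducer of these factors, was followed through its ligands, receptors and SMADs. TGFB2 averaged 15.8 ± 0.201 FPKM in HCC4006 KO OT and 50.4 ± 0.601 FPKM in HCC4006 CTRL OT (SD, n = 3 each), a difference of -1.61 (SE 0.0555, adjusted p = 1.6e-09). In PC9 it averaged 13.7 ± 1.27 FPKM in KO OT and 26.9 ± 0.974 FPKM in CTRL OT, a difference of -0.93 (SE 0.0577, adjusted p = 1.0e-07). Its interaction of genotype and drug was -1.56 in HCC4006 and -0.88 in PC9, the sign that SNAI2 also had in both lines. The courses behind that sign differed between TGFB2 and SNAI2 in both lines. With OT in CTRL cells TGFB2 rose by 1.59 in HCC4006 and by 0.97 in PC9. SNAI2 changed there by -0.12 in HCC4006, which did not pass, and rose by 0.96 in PC9. In PC9 KO against CTRL cells under OT, TGFB2 differed by -0.93, where SNAI2 differed by -0.11 and did not pass. Under DMSO SNAI2 was 0.76 higher in PC9 KO cells. Whether TGFB2 acts on SNAI2 was not tested. TGFBR1, the type I receptor, fell with OT by 0.39, 0.29, 0.51 and 0.31 in HCC4006 KO, HCC4006 CTRL, PC9 KO and PC9 CTRL cells. Of the listed genes 0 of 8 were higher and 3 lower in HCC4006 KO cells under OT, 2 and 0 under DMSO, 5 and 2 of 9 in PC9 under OT, and 3 and 0 under DMSO. All genes gave 27.2% and 16.4%, 9.20% and 8.65%, 28.5% and 25.2%, and 19.8% and 20.0% in the same order. With OT 1 rose and 4 fell in HCC4006 KO cells, 4 and 2 in HCC4006 CTRL cells, 2 and 3 in PC9 KO cells and 4 and 4 in PC9 CTRL cells. Of all genes 46.4%, 45.0%, 36.9% and 32.0% rose and 36.5%, 36.6%, 41.4% and 40.9% fell, and the medians of the list were -0.10, 0.07, 0.01 and -0.02, beside 0.11, 0.09, -0.02 and -0.04 for all genes.

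Other EMT-linked transcription factors included genes with larger drug changes than the 6. HMGA2, a chromatin protein that induces SNAI1 in mouse cells, averaged 0.146 ± 0.0291 FPKM in HCC4006 KO OT and 13.6 ± 0.884 FPKM in KO DMSO (SD, n = 3 each), with OT changes of -3.67, -3.44, -3.42 and -2.62 in HCC4006 KO, HCC4006 CTRL, PC9 KO and PC9 CTRL cells. SOX4 rose by 1.69, 1.62, 1.43 and 1.41. In PC9 KO cells HMGA2 under DMSO was 0.89 higher than in CTRL cells, and PRRX2 was 0.56 higher under OT and 0.70 under DMSO. SNAI3, the remaining SNAI gene, averaged at most 0.579 FPKM, and PRRX1 averaged 0.015 FPKM in HCC4006 KO OT and was listed at 0 in the other 7 groups. Of 8 tested per line, 3 rose and 3 fell with OT in HCC4006 KO cells, 3 and 4 in HCC4006 CTRL cells, 3 and 5 in PC9 KO cells and 2 and 5 in PC9 CTRL cells. In HCC4006 these counts lay near the shares of all genes, 46.4% higher and 36.5% lower in KO cells and 45.0% and 36.6% in CTRL cells. In PC9 36.9% and 32.0% of all genes rose and 41.4% and 40.9% fell. In KO against CTRL cells 3 were higher and 0 lower in HCC4006 under OT, 1 and 0 under DMSO, 4 and 2 in PC9 under OT, and 5 and 2 under DMSO. Shares of all genes were 27.2% and 16.4%, 9.20% and 8.65%, 28.5% and 25.2%, and 19.8% and 20.0% in that order.

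Genes whose pattern over the 24 libraries was most like each factor were found by Pearson correlation of log2(FPKM + 1) centred within each line, among 11546 genes. The points share library, depth and treatment, so these values are descriptions. For SNAI2 they were FERMT2 (0.88), ANKLE2 (0.88), CRIM1 (0.87), KRT7 (0.86) and DAD1 (0.85). For SNAI1 they were TSC22D1, PRKAA1, WAC, LPHN1 and NCOA5, between 0.85 and 0.86. For TWIST2 they were P4HA2 (0.90), RPL5 (0.90), RPL29, LRRC75A-AS1 and ARSI, the last 3 at 0.88 to 0.89. For TWIST1, among 11547 genes, they were ACTBL2 (0.89), HADHA, FKBP1B, LINC00592 and GPC1. Among the measured factors themselves SNAI2 and TWIST1 had 0.63, SNAI1 and TWIST1 -0.59, SNAI1 and TWIST2 0.46, SNAI2 and TWIST2 0.42, SNAI1 and SNAI2 -0.23 and TWIST1 and TWIST2 0.09. With ZEB1, which was near the floor, TWIST2 had 0.67, SNAI1 0.39, SNAI2 0.31 and TWIST1 -0.10. With ZEB2, also near the floor, the values were -0.24, -0.32, -0.18 and 0.33 in that order.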

How the data were processed

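Messenger RNA libraries of 24 dishes, 3 in each of 8 groups, were analysed from a deposited table of FPKM per gene symbol, in which the authors had already scaled fragments by transcript length and library size. Per the submitters' processing notes the tools included DESeq2 1.10.1, Cufflinks 2.2.1 and STAR 2.5.1b, with the build hg19. The annotation and the strand setting of counting are not given in the sources used here. Columns headed NOTX were taken as DMSO and columns headed s4006 as HCC4006, since their remaining parts match the labels of those libraries and of no others. The knockout columns are headed YAP14 in PC9 and YAP30 in HCC4006 and were taken as the YAP1 KO cells of each line. The sources used here do not say what these numbers stand for. No counts were used, so absolute depth is unknown, and relative depth was read from the steps between low values.

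Values were tested as log2(FPKM + 1) with limma 3.58.1 in R 4.3.3, with a trend in the variance and Benjamini-Hochberg adjustment over all genes that reached FPKM 1 in 3 or more libraries of the fit. A call means an adjusted p under 0.05. The fits held 13113 genes in HCC4006, 12685 in PC9 and 13996 in both lines, with 8, 8 and 16 residual degrees of freedom. Changes of low genes are understated by the pseudocount. As alternatives the fits were run with pseudocounts of 0.1 and 0.01, without a filter, with a filter at FPKM 5, with median-of-ratios scaling or equal FPKM sums, with a replicate block and without each library in turn. Tables and figures were made with Python 3.11.15, pandas 2.3.3 and matplotlib 3.10.9, and the fits were tested on simulated data. As a check of pairing by replicate number, the 3 same-numbered pairs of HCC4006 CTRL OT and CTRL DMSO libraries had correlations of 0.134, 0.146 and 0.143, all over 0.1, where those of different number lay between -0.129 and -0.0240. Between HCC4006 KO DMSO and KO OT, however, libraries of different number reached 0.219, 0.179 and 0.206. Correlations of this size therefore cannot show whether the CTRL OT and CTRL DMSO libraries were paired, and no source states it. The main fits did not pair them, and the block changed no call of a factor between them. No other pair of groups was over 0.1 in all 3 shared numbers.

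The factors and the gene lists were chosen with earlier results of these data known. Named genes were the 6 factors, YAP1, CDH1, VIM, EPCAM, BMF, ESRP1, OVOL1, OVOL2, TCF3, KDM1A, SNAI3 and PRRX1 whatever their result. To these came up to 3 called genes with the largest change per list, line and comparison, and the 5 genes most like each measured factor. CRB3, CLDN7, ZEB1-AS1, COL3A1, LUM, PDGFRA, PDGFRB, POSTN and SFTPB fell outside that rule and were named after their values were seen. DUB3 of the list of kinases and ubiquitin enzymes had no row.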

Additional observations from a re-analysis of the deposited data

Results flagged for a closer look

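The OT change of SNAI2 differed between genotypes in both lines by a direct test in limma. The OT change in KO cells minus that in CTRL cells was -0.68 in HCC4006 and -0.87 in PC9.

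The OT change in CTRL cells differed between the lines for 3 factors. The HCC4006 change minus the PC9 change was -1.08 for SNAI2, -0.69 for TWIST2 and -0.66 for TWIST1. TWIST1 passed the filter of the fit over both lines through its PC9 OT libraries.

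The difference between KO and CTRL cells also differed between the lines. The HCC4006 difference minus the PC9 difference was -1.55 for TWIST2, -0.82 for TWIST1 and -0.62 for SNAI2 under OT. Under DMSO it was -1.59 for TWIST2, -0.82 for TWIST1 and -0.81 for SNAI2. The same limit on the filter holds for TWIST1 here. The sources used here do not say whether groups were plated together.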

How the results depend on the processing

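No direction with a call was turned by any alternative. Of the recomputed factor changes 1366 stayed on their side of the threshold, 15 lost a call and 5 gained one. Of the 1366, 49 had the other sign, none of them called, and each was at most 0.14 in size as first fitted. The number of factors called is small, so a single gene moves it by a large share. With no filter 2 factors were called for OT against DMSO in HCC4006 CTRL cells (1 with the filter, ZEB2 being added at levels near 0) and 1 for YAP1 KO against CTRL in HCC4006 under DMSO (0 with it, TWIST1 being added). It also gave 3 for OT in HCC4006 KO cells, ZEB2 being added, 4 for KO against CTRL in PC9 under DMSO, ZEB1 being added, and 6 and 5 between the lines in CTRL OT and CTRL DMSO. With a filter at FPKM 5, under which fewer factors were tested, 1 was called for KO against CTRL in HCC4006 under OT, 0 for OT in PC9 KO cells, 1 for OT in PC9 CTRL cells, 1 for KO against CTRL in PC9 under OT, and 2 between the lines in CTRL OT and 2 in CTRL DMSO. Median-of-ratios scaling gave 2 for OT in HCC4006 CTRL cells, SNAI2 being added. At a limit of FPKM 5 in place of FPKM 1, 2 factors counted as measured, SNAI2 and TWIST2. Leaving out libraries in turn gave 2 to 4 factors between the lines in CTRL OT, 1 to 2 for OT in HCC4006 CTRL cells and 0 to 1 for KO against CTRL in HCC4006 under DMSO. With a pseudocount of 0.01 the TWIST1 differences between lines lost their calls, with adjusted p of 0.222 in CTRL OT, 0.0841 in CTRL DMSO and 0.0549 for the difference in OT change, and at 0.1 the adjusted p in CTRL OT was 0.107. With equal FPKM sums the SNAI1 difference between lines in CTRL OT had an adjusted p of 0.0611.

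Replicate numbers were shared by the groups. Same-numbered libraries had correlations of their deviations from group means between -0.15 and 0.236 in HCC4006 (median 0.0485) and between -0.264 and 0.161 in PC9 (median 0.00305), with 5 of 18 over 0.1 in HCC4006, against 6 of 36 for libraries of different number, and 3 of 18 in PC9, against 8 of 36. The numbers thus did not pair the groups as a whole. With the replicate block 2 factors were called between the lines in CTRL OT, against 4 without it, with adjusted p of 0.114 for SNAI1 and 0.0674 for TWIST2, and the block changed no other call of a factor.

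Levels of SNAI1 and TWIST1 lie near FPKM 1 and those of ZEB1 and ZEB2 near 0, where counting error is large relative to the level and its size cannot be had from FPKM.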
